A study of Mus musculus with 6 samples.

Results

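The RAS, RAF, MEK and ERK core genes examined here are Hras and Nras, Araf and Braf, Map2k1 and Map2k2, and Mapk3. They were taken by symbol, with no threshold on their values, and all 7 were found among the 35027 genes of the deposited table. They were measured by RNA-seq in tumor cells of mouse thyroids that had been sorted for the fluorescent protein Kate, in 3 libraries from YAP mice and 3 from BrafYAP mice. YAP mice carried a Cre transgene, a Rosa26 cassette that after recombination expresses the dox-dependent transactivator rtTA together with Kate, and a tetO transgene for YAP with the S127A change, which keeps YAP in the nucleus. BrafYAP mice carried all of these and, in addition, an LSL-Braf allele that expresses Braf V600E from the endogenous gene once Cre has removed its stop cassette. Both groups received dox chow, in the labels from 4 weeks of age, so that by the labels both carry mutant YAP and the comparison addresses what mutant Braf adds to it. Yap1 had 783, 781 and 907 scaled reads (defined below) in YAP replicates 1, 2 and 3 and 1368, 1466 and 264 in BrafYAP replicates 1, 2 and 6. BrafYAP replicate 6 was thus the lowest library for Yap1, below every YAP library, and the transgene was not measured apart from the endogenous gene, so that its expression in the library labelled BrafYAP replicate 6 is not shown by these values. No library of unmutated thyroid cells or of mutant Braf alone was analysed here. According to the labels, 3 tumors were pooled for every YAP library (replicates 1, 2 and 3), whereas a BrafYAP library (replicates 1, 2 and 6) holds a single tumor, and pooling and genotype then cannot be told apart. The study's own text instead describes single tumors for all replicates and, in one place, a later start of dox, so the make-up of the YAP libraries is not settled. By the labels, expression of the mutant YAP is specific to the thyroid.

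RAS proteins are small GTPases at the plasma membrane that switch between an inactive GDP-bound and an active GTP-bound form. Active RAS recruits the RAF kinases (Araf, Braf and their relatives), RAF phosphorylates the dual-specificity kinases MEK1 and MEK2 (Map2k1, Map2k2), and MEK phosphorylates the ERK kinases (Mapk3 encodes ERK1), which enter the nucleus and drive growth-related transcription. In thyroid cancer this cascade is the usual site of driver mutations, and Braf V600E signals as a monomer without RAS. Flux through the cascade is set mostly by phosphorylation and by feedback, so transcript levels of its kinases do not report its activity.

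Depth ranged from 26156600 to 36914900 estimated reads per library. All values below are scaled reads, unless another unit is named. These are the deposited TPM (transcript abundance per length and depth) multiplied back by the gene length that had divided them, on one factor for all libraries. The members had between 125 (Hras) and 7764 (Map2k1) estimated reads in a library, and counting alone gives an error of 8.94% at the lowest Hras value and of 7.79% at the lowest Braf value. Map2k1, Map2k2 and the other members were measured in sorted cells with a considerable content of immune marker transcripts. The summed level of 15 immune markers, in TPM by exonic length, was 45000, 33848 and 13282 in YAP replicates 1, 2 and 3 and 14063, 10356 and 3972 in BrafYAP replicates 1, 2 and 6, with none of the 15 at 0 in all libraries. These sums overlapped between the groups, since YAP replicate 3 was below BrafYAP replicate 1. Of 12 immune markers tested, 7 had an unadjusted limma p under 0.05, and all 7 were lower in BrafYAP cells, where 10.5% of all genes tested were lower at that p. The summed level of 12 thyroid markers, in TPM by exonic length, overlapped between the groups (324 to 620 in YAP and 150 to 589 in BrafYAP cells). Of these 12, 2 were too low to be tested. Of 10 thyroid markers tested, 4 had a higher and the others a lower estimate in BrafYAP cells, with a median log2 fold change of -1.43 and 1 in each direction at an unadjusted p under 0.05. Without BrafYAP replicate 6 the median was -2.14 and 5 were lower at that p, as were 1915 of all 16588 genes tested. BrafYAP replicate 6 stood apart from the rest, with a correlation across genes of 0.732 to 0.837 with the other 5 libraries, where other pairs had 0.833 to 0.968. Its summed level of 6 C-cell markers was 339 TPM by exonic length, against 2.36 and 4.36 in BrafYAP replicates 1 and 2 and 2.88 to 93.1 in the YAP libraries. Its sum of 7 endothelial markers was 40.2, against 3.41 and 2.14 in BrafYAP replicates 1 and 2 and 4.26 to 33.5 in the YAP libraries. This library was also the highest of all for Map2k2, Mapk3 and Braf, and the part of these markers in the values was not tested.

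The promoters of the 4 genes that separated the genotypes most clearly or had an unadjusted p under 0.05 are shown first, since they carry the results that follow. They are RefSeq sequences of build GRCm38.p6, from 250 bases before to 50 bases after the start of the gene, and 6 of the 7 members had an entry. The start that RefSeq gives for Araf lies inside the longer span of the annotation used for the counts below. Short motifs were searched on both strands, and capitals mark every match. The GC box was searched as GGGCGG and the CCAAT box by the letters of its name. The core bound by TEAD factors, the DNA-binding partners of YAP, was searched as GGAATG. The ETS core, bound by factors that ERK phosphorylates, was searched as CCGGAAG, the AP-1 site as TGANTCA and the cyclic AMP response element (CRE) as TGACGTCA.
Hras (chr7:141193955-141194254, minus strand): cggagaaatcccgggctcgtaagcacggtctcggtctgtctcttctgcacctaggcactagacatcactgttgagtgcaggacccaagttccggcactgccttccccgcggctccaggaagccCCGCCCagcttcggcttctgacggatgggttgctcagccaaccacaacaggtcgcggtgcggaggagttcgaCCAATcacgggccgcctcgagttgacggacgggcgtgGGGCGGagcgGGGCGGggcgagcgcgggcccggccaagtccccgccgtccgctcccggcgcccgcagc
Map2k1 (chr9:64253556-64253855, minus strand): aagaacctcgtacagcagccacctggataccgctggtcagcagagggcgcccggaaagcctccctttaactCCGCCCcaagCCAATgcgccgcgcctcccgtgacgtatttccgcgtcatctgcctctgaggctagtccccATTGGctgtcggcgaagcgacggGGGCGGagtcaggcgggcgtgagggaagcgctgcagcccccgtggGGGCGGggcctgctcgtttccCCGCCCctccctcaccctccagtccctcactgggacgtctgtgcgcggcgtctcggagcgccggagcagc
Map2k2 (chr10:81105665-81105964, plus strand): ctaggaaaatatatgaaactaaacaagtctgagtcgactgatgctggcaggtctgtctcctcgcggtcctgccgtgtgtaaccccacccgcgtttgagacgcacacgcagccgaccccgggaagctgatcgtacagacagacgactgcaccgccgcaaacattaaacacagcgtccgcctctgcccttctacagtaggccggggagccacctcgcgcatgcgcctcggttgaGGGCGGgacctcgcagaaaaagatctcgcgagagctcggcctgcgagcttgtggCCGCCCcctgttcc
Araf (chrX:20848293-20848592, plus strand): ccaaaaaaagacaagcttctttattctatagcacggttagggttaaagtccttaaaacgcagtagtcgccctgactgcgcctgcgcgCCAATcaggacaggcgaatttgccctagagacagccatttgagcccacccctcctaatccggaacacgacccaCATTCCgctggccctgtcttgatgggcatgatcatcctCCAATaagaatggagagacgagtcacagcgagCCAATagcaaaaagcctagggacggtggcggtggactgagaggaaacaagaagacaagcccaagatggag
The 3 genes that were higher in BrafYAP cells held 3 (Hras), 4 (Map2k1) and 2 (Map2k2) GC boxes. This motif was found in 35.7% of 32851 promoters of this length, and Nras and Braf, which were not higher, held 3 and 1. Araf held 0 GC boxes, 3 CCAAT motifs, as against 37.4% of promoters with at least 1, and 1 TEAD core, present in 14.7% of promoters. CCAAT motifs were also present in Map2k1 (2) and Hras (1). The TEAD core was not matched in the other 5 promoters. The ETS and AP-1 letters were matched in none of the 6, as against 8.86% and 7.81% of all promoters. Braf held 2 CRE matches, a motif of 1.79% of promoters. These are matches of letters and say nothing on binding.

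Both MEK genes and Hras had more transcript in BrafYAP than in YAP cells, whereas Araf had slightly less and Braf itself was level. By limma on log2(scaled reads + 1), Map2k2 was higher by 2.14 on the log2 scale, Map2k1 by 1.79 and Hras by 0.83, and these 3 were the members with an unadjusted p under 0.05 (3 of 7, where 20.2% of all 16832 genes tested reached it and 9.68% did so in the direction higher in BrafYAP). None of the 7 passed the limma adjusted p of 0.05, and neither did any other gene in this fit, in which 3404 genes had an unadjusted p under 0.05. The genotypes did not overlap for 3 members, Hras and Map2k2 (higher) and Araf (lower), against 28.7% of all genes tested, of which 11.7% were higher and 17.1% lower. In bulk samples, fewer cells that express a gene and less of its RNA in each cell cannot be told apart. Of the 12 immune markers tested above, 1 had a higher estimate in BrafYAP cells and the others a lower one. The part of these markers in the differences between genotypes was not tested. When log2 of the deposited TPM + 1 or of the exonic TPM + 1 was tested instead, 0 members passed the limma adjusted threshold, which 0.246% and 0.427% of all genes tested did.

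**Figure D1:**
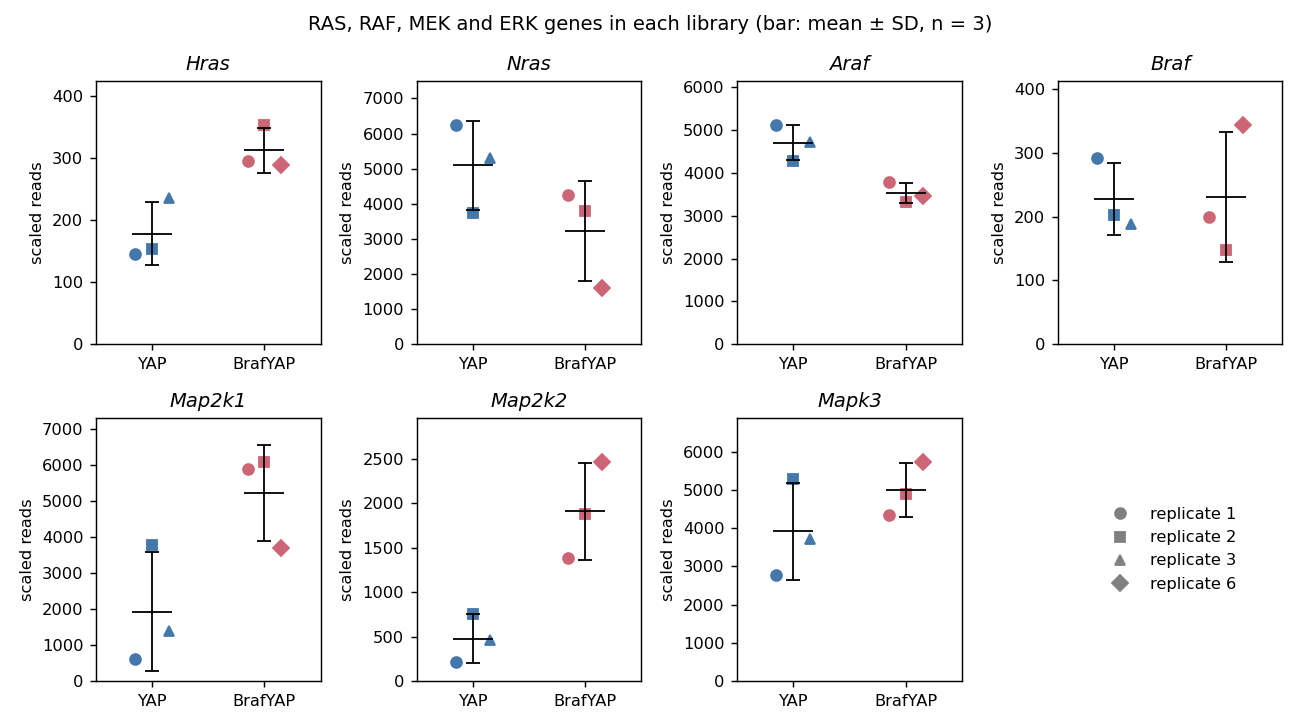
Scaled reads of the 7 genes in each library (vertical axes, linear, from 0), for 3 YAP and 3 BrafYAP libraries, with marker shape for the replicate number and bars for mean ± SD (n = 3). The BrafYAP points of Map2k2 and Hras all lie above the YAP points, those of Araf lie below, and the other 4 genes overlap.

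Braf, the gene that carries the mutation in BrafYAP mice, was the least abundant member per exonic length. It lies on chromosome 6 (39603237 to 39725463, minus strand, mm10). Its scaled reads were 292, 202 and 189 in YAP replicates 1, 2 and 3 and 199, 148 and 344 in BrafYAP replicates 1, 2 and 6. The extremes of the series were thus both BrafYAP libraries. The means were 228 ± 56.1 (SD, n = 3) and 230.5 ± 101 (SD, n = 3), and the log2 fold change was -0.04 (95% interval -1.02 to 0.93, limma adjusted p = 0.963). Its sign depended on single libraries and on the scaling: it was 0.15 without YAP replicate 1, 0.23 without BrafYAP replicate 2, -0.37 without BrafYAP replicate 6 and 0.08 with median-ratio scaling. The gene-level table does not separate the mutant from the normal allele, so it cannot check the genotype. Braf overlaps Ndufb2, which lies on the other strand, by 146 bases and holds the pseudogene Fth-ps2, and no strand was stated for the counting.

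Araf, the X-linked RAF paralog, had the narrowest spread of all members. It lies on chromosome X (20797814 to 20860519, plus strand), and shares 9 bases of its span with Syn1. Its scaled reads were 5120, 4285 and 4718 in YAP replicates 1, 2 and 3 and 3779, 3330 and 3449 in BrafYAP replicates 1, 2 and 6. Every YAP library was above every BrafYAP library, and the coefficient of variation was 8.86% in YAP and 6.61% in BrafYAP cells. The difference in means, 4708 ± 417 against 3519 ± 233 (SD, n = 3 each), was 1.34-fold. Its log2 fold change was -0.42 (SE 0.24, 95% interval -0.99 to 0.15, limma adjusted p = 0.372), and it lay between -0.48 and -0.36 when any one library was left out. The median of all genes tested was -0.12.

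Of the RAS genes, Hras was low and Nras was abundant, and they leaned in opposite directions. Hras (chromosome 7, 141189105 to 141194005, minus strand) had 146, 153 and 236 scaled reads in YAP replicates 1, 2 and 3 and 295, 353 and 289 in BrafYAP replicates 1, 2 and 6. The 3 BrafYAP libraries were close together and all above the highest YAP library, replicate 3. The means were 178 ± 50.01 and 312 ± 35.7 (SD, n = 3 each), a log2 fold change of 0.83 (SE 0.33, 95% interval 0.05 to 1.62, unadjusted p = 0.0402, limma adjusted p = 0.226). Leaving out single libraries moved it between 0.71 and 1.05, and its unadjusted limma p reached 0.130 when BrafYAP replicate 2 was absent. That p was above 0.05 in 4 of these 6 fits.

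Nras (chromosome 3, 103058285 to 103067914, plus strand) encodes the RAS isoform that is, with Hras, a recurrent driver in follicular-patterned thyroid tumors. Its scaled reads were 6247, 3726 and 5316 in YAP replicates 1, 2 and 3 and 4255, 3806 and 1590 in BrafYAP replicates 1, 2 and 6. BrafYAP replicate 6 was far below the rest, while BrafYAP replicates 1 and 2 were above YAP replicate 2. The means were 5097 ± 1275 and 3217 ± 1427 (SD, n = 3 each), with a log2 fold change of -0.75 (SE 0.44, 95% interval -1.78 to 0.27, limma adjusted p = 0.371). Without BrafYAP replicate 6 it was -0.31, so that this one library held much of the difference.

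The MEK genes differed most between the genotypes. Map2k2 (chromosome 10, 81105915 to 81133975, plus strand), which encodes MEK2, had 212, 758 and 462 scaled reads in YAP replicates 1, 2 and 3 and 1382, 1882 and 2469 in BrafYAP replicates 1, 2 and 6. The lowest BrafYAP library was well above the highest YAP library. The means were 477 ± 274 and 1911 ± 545 (SD, n = 3 each), a 4.00-fold difference. The log2 fold change was 2.14 (SE 0.50, 95% interval 0.97 to 3.32, unadjusted p = 0.00336, limma adjusted p = 0.104), which ranked 542 of 16832 genes tested by p. It was 1.65 without YAP replicate 1, the library with the fewest reads of it, and 2.57 without YAP replicate 2, and its unadjusted p was under 0.05 in all 18 alternative fits.

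Map2k1 (chromosome 9, 64185770 to 64253631, minus strand), which encodes MEK1, had 615, 3773 and 1376 scaled reads in YAP replicates 1, 2 and 3 and 5881, 6094 and 3694 in BrafYAP replicates 1, 2 and 6. YAP replicate 2 was marginally above BrafYAP replicate 6, so the groups overlapped, though not with median-ratio scaling, quantile normalization, voom or the exonic length. The YAP libraries ranged over 6.14-fold, the widest spread of any member. The means were 1921 ± 1648 and 5223 ± 1328 (SD, n = 3 each). The log2 fold change was 1.79 (SE 0.63, 95% interval 0.30 to 3.28, unadjusted p = 0.0245, limma adjusted p = 0.185). It was 1.16 without YAP replicate 1 and 2.47 without YAP replicate 2, and in the fits that left out YAP replicate 1 or 3 or BrafYAP replicate 1 or 2 the unadjusted p was above 0.05. The lincRNA Gm48855 and Uchl4 lie within the span of Map2k1 on the opposite strand. With array weights, which give a library a weight by its fit to its group, Map2k1 and Map2k2 passed the threshold (limma adjusted p = 0.00519 and 0.00484), as did 4653 genes in all.

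Mapk3, which encodes ERK1 and lies on chromosome 7 (126759601 to 126765819, plus strand), was the most abundant member per exonic length in both genotypes. It had 2777, 5289 and 3710 scaled reads in YAP replicates 1, 2 and 3 and 4340, 4902 and 5743 in BrafYAP replicates 1, 2 and 6. YAP replicate 2 lay above BrafYAP replicates 1 and 2, so the groups overlapped. The means were 3925 ± 1270 and 4995 ± 706 (SD, n = 3 each), with a log2 fold change of 0.39 (SE 0.32, 95% interval -0.36 to 1.14, limma adjusted p = 0.514). It was 0.16 without YAP replicate 1 and 0.63 without YAP replicate 2, the only fit that left out a library in which its groups did not overlap. In Map2k1, Map2k2 and Mapk3, YAP replicate 1 was the lowest of all 6 libraries and YAP replicate 2 the highest of the YAP libraries. That pattern was not particular to these genes. Of genes in the lists below, Rras, Rheb and Fnta had it too, whereas Rasa2 and Zdhhc9 did not.

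**Figure D2:**
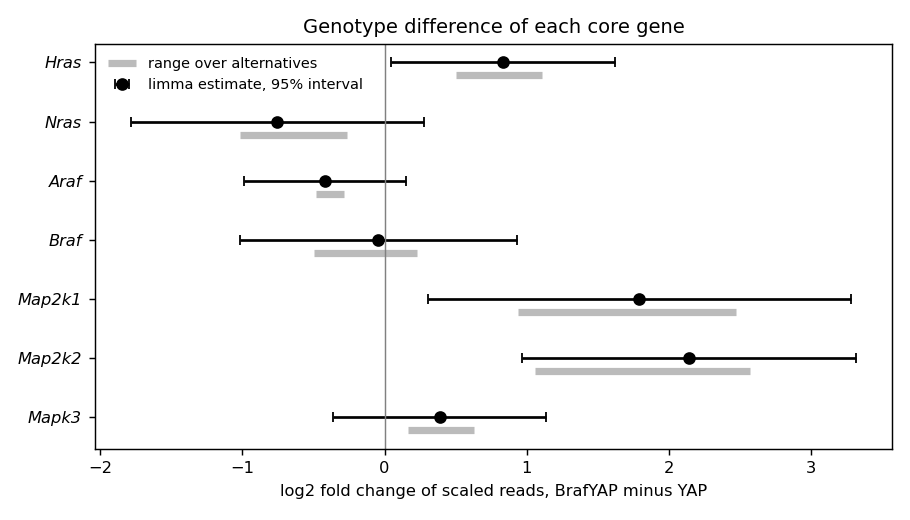
Log2 fold change of scaled reads, BrafYAP minus YAP, for each gene (horizontal axis, points, with limma's 95% interval), and below it in grey the range over the alternative fits. The intervals of Map2k2 (0.97 to 3.32), Map2k1 (0.30 to 3.28) and Hras (0.05 to 1.62) lie above 0, and the range over the alternatives crosses 0 for Braf alone.

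Levels were then compared between genes, as TPM recomputed with the exonic length. In YAP cells the order was Mapk3, 149.9 ± 44.6 (SD, n = 3), Nras, 83.1 ± 22.2, Araf, 62.4 ± 6.90, Map2k1, 48.3 ± 39.8, Map2k2, 7.25 ± 3.97, Hras, 4.17 ± 1.36, and Braf, 1.42 ± 0.34. The ranges of Nras and Araf over the libraries overlapped, as did those of Araf and Map2k1 and those of Map2k2 and Hras. Within each YAP library, however, Nras was above Araf (100.7 against 67.3, 58.2 against 54.5 and 90.5 against 65.4 in replicates 1, 2 and 3). The order of Araf and Map2k1 and that of Map2k2 and Hras changed between libraries. In BrafYAP cells Map2k1 took the second place. There the order was Mapk3, 198 ± 27.1 (SD, n = 3), Map2k1, 138 ± 36.5, Nras, 54.2 ± 24.3, Araf, 48.2 ± 2.84, Map2k2, 30.2 ± 8.45, Hras, 7.51 ± 0.98, and Braf, 1.49 ± 0.64, and only Nras and Araf overlapped among neighbours. The exonic length joins the exons of all annotated transcripts, 13862 bases for Braf, and which exons were in use was not measured.

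**Figure D3:**
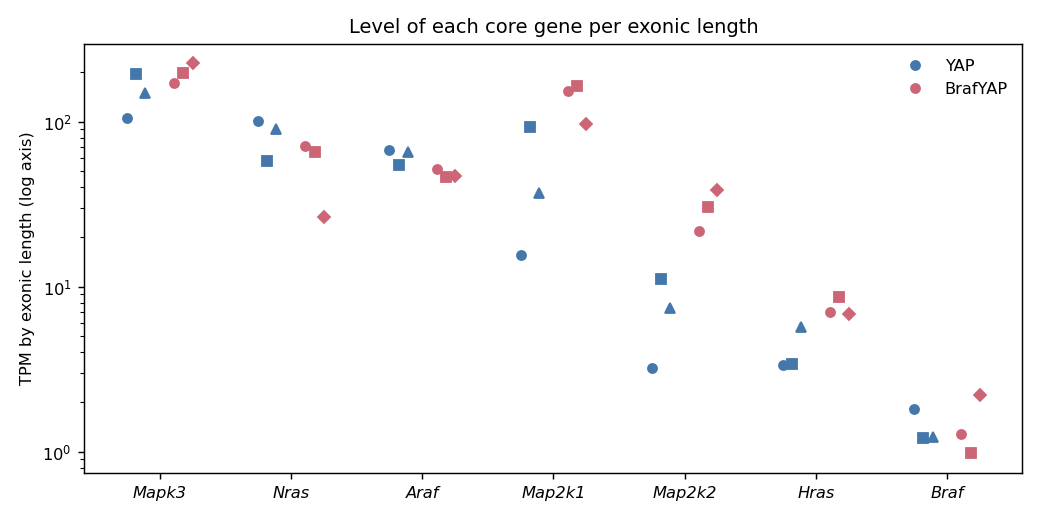
TPM by exonic length (vertical log axis) of each gene in the 3 YAP and 3 BrafYAP libraries, with marker shape for the replicate (circle 1, square 2, triangle 3, diamond 6). Mapk3 lies at the top in both genotypes (149.9 and 198 on average) and Braf at the bottom (1.42 and 1.49).

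The balance within each pair of paralogs does not depend on the scaling between libraries, and 3 pairs were compared by exact permutation (two-sided), whose smallest possible p is 0.1 for groups of 3. The log2 ratio of Hras to Nras was -5.41, -4.60 and -4.49 in YAP replicates 1, 2 and 3 and -3.85, -3.43 and -2.46 in BrafYAP replicates 1, 2 and 6. It was higher in all BrafYAP than in all YAP libraries, by 1.59 on average (-4.83 ± 0.50 against -3.24 ± 0.71, SD, n = 3 each, exact permutation p = 0.1, adjusted over the 3 pairs 0.3). Per exonic length, Nras was 15.8 to 29.97 times as abundant as Hras in YAP cells and 3.86 to 10.1 times in BrafYAP cells.

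For the MEK pair the balance overlapped. The log2 ratio of Map2k1 to Map2k2 was 1.53, 2.31 and 1.57 in YAP replicates 1, 2 and 3 and 2.09, 1.69 and 0.58 in BrafYAP replicates 1, 2 and 6, a difference of -0.35 (exact permutation p = 0.6, adjusted 0.6), which was 0.09 without BrafYAP replicate 6. Map2k1 was above Map2k2 per exonic length in all 6 libraries, by 2.50 to 8.31 times. The log2 ratio of Braf to Araf was -4.13, -4.40 and -4.63 in YAP replicates 1, 2 and 3 and -4.24, -4.48 and -3.32 in BrafYAP replicates 1, 2 and 6, a difference of 0.37 (exact permutation p = 0.5, adjusted 0.6) that was 0.03 without BrafYAP replicate 6. With 1 added to the deposited TPM or to the exonic TPM the difference was 0.29 or 0.38, each with an exact permutation p of 0.1, the smallest possible. On the deposited scale the added 1 outweighs Braf (0.0404 to 0.0934 TPM). The difference there is thus almost that of Araf alone (log2 fold change -0.29). On the exonic scale, where Braf had 0.98 to 2.20 TPM, the added 1 damps Braf as well.

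**Figure D4:**
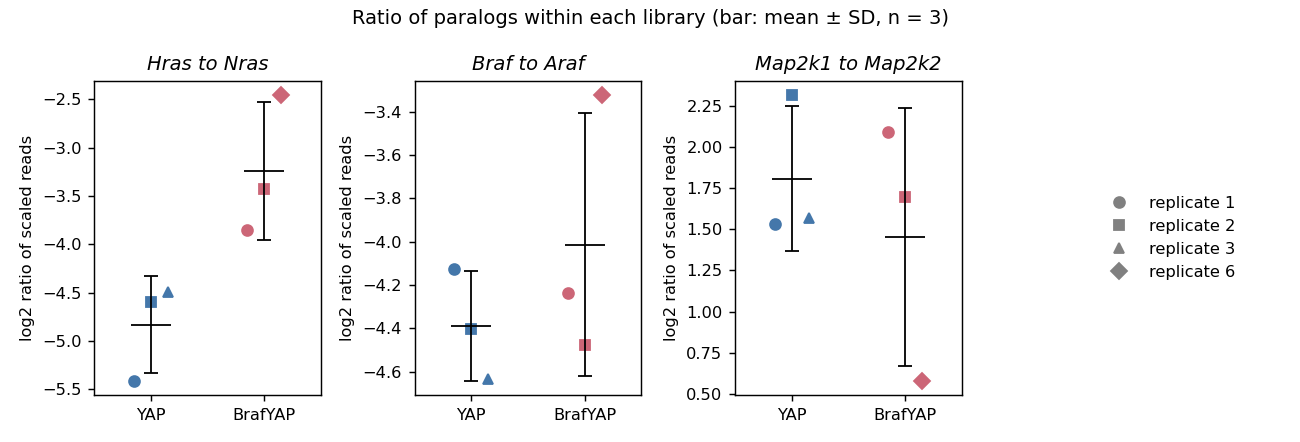
Log2 ratio of scaled reads of 2 paralogs within each library (vertical axes), by genotype, with marker shape for the replicate and bars for mean ± SD (n = 3). The ratio of Hras to Nras is higher in all 3 BrafYAP libraries (-3.85 to -2.46) than in the YAP libraries (-5.41 to -4.49), and the other 2 ratios overlap.

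Genes that act on or beside the cascade were taken from 8 lists of 119 genes, of which 115 were tested. Of these 28 had an unadjusted limma p under 0.05, 24 higher and 4 lower in BrafYAP cells, and 0 passed the adjusted threshold. Of all genes tested 20.2% had such a p, 9.68% higher and 10.5% lower. Every list count below that comes from this fit stands against these shares. The core genes had a median log2 fold change of 0.39, against -0.12 for all genes tested, and it was 0.16 without YAP replicate 1 and 0.63 without YAP replicate 2. Among exchange factors, which load RAS with GTP, and adaptors, 2 of 15 were higher and 1 lower at an unadjusted p under 0.05 (median 0.01, and -0.14 without YAP replicate 3). The exchange factor gene Rasgrf1 had 3 to 4 scaled reads in the YAP and 72 to 430 in the BrafYAP libraries, and the adaptor gene Crk had 656 to 740 and 1250 to 1970. Rasgrp1, an exchange factor gene of lymphocytes, had 75 to 345 reads in YAP and 32 to 65 in BrafYAP libraries. These 3 genes had limma adjusted p-values of 0.0754, 0.106 and 0.188.

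Among GTPase-activating proteins, which return RAS to its GDP-bound form, and other negative regulators, 1 of 11 had an unadjusted p under 0.05 (median 0.35). It was Rasa2, with 170 to 261 scaled reads in YAP and 459 to 1362 in BrafYAP cells (log2 fold change 1.73, limma adjusted p = 0.121). The next genes by p, Rasal1 (3.13, limma adjusted p = 0.325) and Rasal2 (-0.53, limma adjusted p = 0.412), overlapped between the groups. Among RAS-related GTPases 5 of 17 were higher at an unadjusted p under 0.05 and 0 lower (median 0.71). These were 29.4% of the list. Of all genes tested, 9.68% were higher at that p and 20.2% had it in either direction. Without YAP replicate 1, 2 of 17 were higher and 1 lower, where 1081 of all 16828 genes tested were higher and 1204 lower. Without YAP replicate 3, 2 of 17 were higher and 0 lower, where 1096 of all 16803 genes tested were higher and 1248 lower. Rras, a close relative of the RAS genes, was higher by 1.61 on the log2 scale, Rala, which encodes a GTPase of the RAL branch, by 1.63, and Rheb, the activator of mTORC1, by 1.78, with limma adjusted p-values of 0.143, 0.164 and 0.179. Each of these 3 was higher in all BrafYAP than in all YAP libraries.

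Farnesylation anchors RAS in the membrane, and the processing list held 1 higher and 1 lower gene of 10 at an unadjusted p under 0.05 (median 0.33). Without YAP replicate 1 the median was -0.10 and 4 of 10 had a higher estimate, as did 42.2% of all genes tested. Fnta, the alpha subunit shared by farnesyltransferase and a related prenyl transferase, had 206 to 1091 scaled reads in YAP and 1680 to 2689 in BrafYAP libraries (log2 fold change 2.23, limma adjusted p = 0.118). The farnesyltransferase beta subunit gene Fntb had 314 to 511 and 210.2 to 270.3 reads (-0.70, limma adjusted p = 0.285), and Zdhhc9, which encodes a RAS palmitoyltransferase, had 3373 to 4809 and 2295 to 2609 (-0.70, limma adjusted p = 0.205). Of 26 scaffolds and modulators 2 were higher and 2 lower at an unadjusted p under 0.05 (median -0.15). Ywhab, a 14-3-3 protein gene, was higher by 1.07, whereas Arrb1, a beta-arrestin gene, was lower by a log2 fold change of -1.59, with 937 to 1040 reads in YAP and 283 to 356 in BrafYAP libraries (limma adjusted p = 0.0760). Ksr2, a MEK scaffold gene, had a log2 fold change of -3.13 (limma adjusted p = 0.181), but at most 48 reads in any library.

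Downstream of ERK, 1 of 7 kinase genes had an unadjusted p under 0.05 (median -0.25). Rps6ka4, which encodes the kinase MSK2, had 194, 4400 and 1338 scaled reads in YAP replicates 1, 2 and 3 and 4945 to 8419 in BrafYAP libraries (log2 fold change 2.50, limma adjusted p = 0.231). Mknk1 and Mknk2, whose products phosphorylate the cap-binding factor eIF4E, had log2 fold changes of -0.67 and -0.36 (limma adjusted p = 0.264 and 0.554). In contrast, 8 of 13 ERK output genes, transcripts that rise with ERK activity, were higher at an unadjusted p under 0.05 and 0 lower (median 1.63), led by Dusp4, Spred2 and Etv4 at 4.95, 1.99 and 2.45 (limma adjusted p = 0.0567, 0.0665 and 0.0818). These were 61.5% of the list, against 9.68% of all genes tested that were higher at that p. Of the 13 genes 11 were higher without overlap between the genotypes, as were 11.7% of all genes tested.

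The parallel MAP kinase cascades (ERK5, JNK and p38, with the atypical members) were the nearest group for comparison. Of their 16 genes 4 were higher and 0 lower at an unadjusted p under 0.05 (median 0.70), which is 25.0% of the list. Of all genes tested, 9.68% were higher at that p and 20.2% had it in either direction. Map2k5, which activates ERK5, was higher by 1.04 on the log2 scale, Map2k4, which activates JNK, by 1.10, and Mapk12, a p38 gene, by 1.44 (limma adjusted p = 0.136, 0.165 and 0.170). Among the other kinases of the MAP2K level, Map2k3 had a log2 fold change of 1.32, Map2k7 of 0.62 and Map2k6 of -1.005, with limma adjusted p-values of 0.252, 0.430 and 0.288, and these 3 genes were named after their values were seen.

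**Figure D5:**
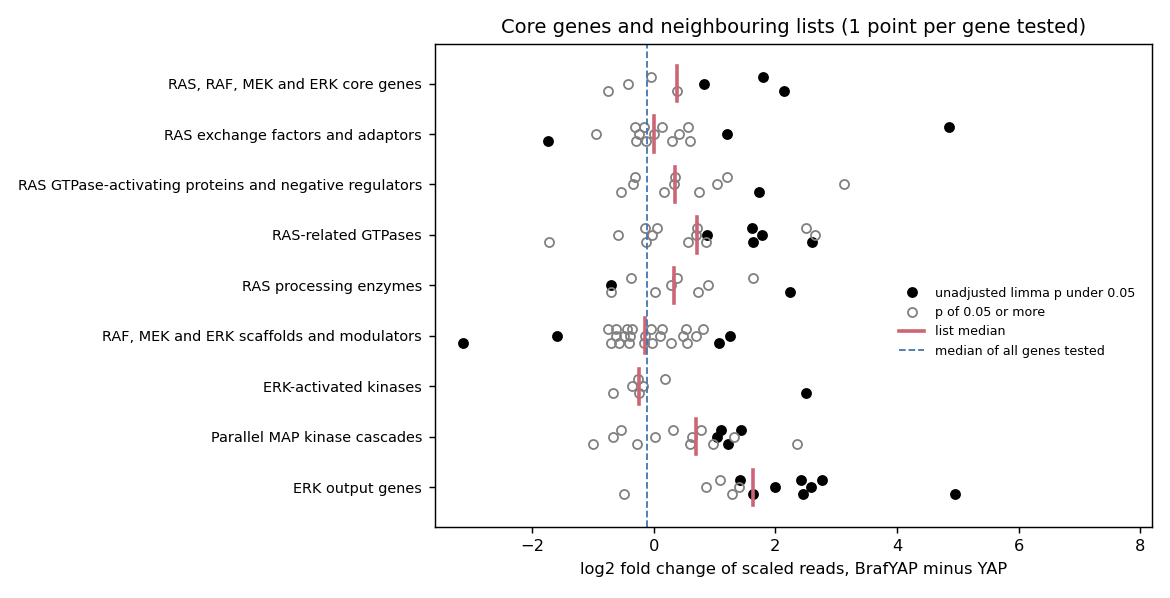
Log2 fold change of scaled reads, BrafYAP minus YAP (horizontal axis), of every gene tested in the core genes and 8 neighbouring lists, with filled points for an unadjusted limma p under 0.05, a red bar for the list median and a dashed line for the median of all genes tested (-0.12). The ERK output genes lie farthest to the right, with a median of 1.63, against 0.39 for the core genes and 0.70 for the parallel cascades.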

How the data were processed

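Each library was made from the amplified RNA (SMART-Seq, 12 cycles) of about 20000 sorted cells and read as pairs of 50 nt. Alignment was to mm10 by STAR (2.6.1d in the submitters' processing notes), and genes were quantified in Partek by E/M, on the annotation of Ensembl release 95. The authors deposited the resulting TPM, to which 0.0001 had been added. Columns sum to 181218. Low values multiplied by the genomic span (GENCODE M21, mm10, the source of coordinates) fell within 0.05 of whole reads for 71.7 to 76.0% of values, and with the exonic length for 24.1 to 26.6%, so TPM had been divided by the span. Symbols of 34640 genes were at one locus, and these have scaled reads. E/M quantification can divide reads between overlapping genes, and intervals and counting errors take no account of PCR duplicates.

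Samples were grouped by title. The genotypes were compared with limma 3.58.1 (R 4.3.3), using lmFit and eBayes with its trend option, two-sided, on log2(scaled reads + 1). All genes averaging 10 or more scaled reads entered, and p-values were adjusted by Benjamini and Hochberg's method. The fit was also run on simulated data with an equal spread for every gene, which checks its code and not its error in these libraries. The labels do not say that same-numbered libraries were paired. By the labels, a YAP library pools 3 tumors and a BrafYAP library holds 1. The p-values measure the spread between these libraries, not between tumors, with a common variance for both kinds. Members and lists were chosen with earlier results of these data known. The genes named are the members, the 3 genes of each list with the lowest p, and for each member the gene with the most similar profile among protein-coding genes with a mean of at least 100 scaled reads (unnamed predicted genes passed over). Marker genes and genes said to be named later are additions. Some further genes of the same families are not reported here. Alternatives were other pseudocounts, filters, scalings, variance models and length units, a replicate block, and each library left out.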

Additional observations from a re-analysis of the deposited data

How the results depend on the processing

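The direction of Map2k1, Map2k2, Hras and Mapk3 (higher) and of Nras and Araf (lower) was kept in all 18 alternative fits, and the limma adjusted p of these genes stayed above 0.05 in all but the array-weights fit of the MEK genes. Braf, at -0.04, turned to 0.018 with the exonic length, 0.082 with median-ratio scaling, 0.15 without YAP replicate 1, 0.017 without BrafYAP replicate 1 and 0.23 without BrafYAP replicate 2, and ranged from -0.37 to 0.23 when one library was left out. It was not tested on the deposited TPM, where its mean is below 1. The number of members with an unadjusted limma p under 0.05 was 3, where 3404 of 16832 genes tested had such a p. It was 1 (Map2k2) with the replicate block (Hras 0.0517 and Map2k1 0.0614 by limma), where 2531 of 16832 genes had it. It was 2 with quantile normalization (all genes, 3526 of 16832). With array weights it was again 3, but the set differed, with Map2k1 and Map2k2 higher, Araf lower and Hras no longer included. In that fit 6916 of 16832 genes tested had such a p. When one library was left out the number of members lay between 1 and 3. It was 1 (Map2k2) without YAP replicate 1 (all genes, 2285 of 16828), BrafYAP replicate 1 (2765 of 16898) or BrafYAP replicate 2 (2599 of 16878). The genotype estimate of the block fit rests on replicates 1 and 2 of each group alone. YAP replicate 3 and BrafYAP replicate 6 have no counterpart in it. The number of members without overlap ranged from 3 to 6 when one library was left out. It was 6 without YAP replicate 2, where 7875 of 16869 genes tested did not overlap, against 4836 of 16832 with all libraries. The ratio of Map2k1 to Map2k2 ranged from -0.67 to 0.086 when one library was left out, and reversed to 0.086 without BrafYAP replicate 6.

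The count of genes past the threshold over all genes, 0 (3404 with an unadjusted limma p under 0.05), was 18 with the deposited TPM, 63 with the exonic length, 45 with a pseudocount of 10, 62 with quantile normalization, 20 without a trend in eBayes and 4653 with array weights, and ranged from 0 to 142 when one library was left out (3 without YAP replicate 2, 142 without BrafYAP replicate 6). The count of list genes with an unadjusted limma p under 0.05 was 28 of 115, where 3404 of 16832 genes tested had such a p. It was 16 of 56 with the deposited TPM (all genes, 1455 of 7319) and 52 of 115 with array weights (6916 of 16832). When one library was left out it ranged from 20 to 39. It was 20 of 115 without BrafYAP replicate 1 (all genes, 2765 of 16898) and 20 of 114 without BrafYAP replicate 2 (2599 of 16878). Without YAP replicate 2 it was 39 of 116 (3841 of 16869). Median-ratio scaling moved the median of all genes by 0.13 on the log2 scale. Only replicate numbers 1 and 2 occur in both groups, and the deviations of same-numbered libraries from their group means correlated across genes at -0.03 and 0.05, so the numbers were not taken as pairs. The block left 0 genes past the threshold. Apart from the reasons named, the cause of these shifts was not tested.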

Other observations

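For each member, the gene with the most similar profile was found by the root-mean-square difference of log2 values centred on each gene's mean, over the 6 libraries and among 10878 protein-coding genes. The measure is a description of 6 libraries and carries no test. The Golgi stacking gene Gorasp2 was nearest to Map2k1 (0.10), with 873, 5392 and 2064 scaled reads in YAP replicates 1, 2 and 3 and 8490, 9421 and 6360 in BrafYAP replicates 1, 2 and 6. It shows the same low value in YAP replicate 1 and the same high value in YAP replicate 2. Hgh1 was nearest to Map2k2 (0.12), Pacs1 to Hras (0.13), Zadh2 to Mapk3 (0.11), Rsbn1l to Braf (0.09), Qk to Nras (0.07) and Rabgef1 to Araf (0.04). Profiles within 0.2 of a member were few for Map2k2 (14 genes), Hras (19) and Map2k1 (27) and many for Araf (874), whose own values vary little. Among the members themselves, Map2k1 and Map2k2 were nearest to each other (0.55), Hras was nearest to Mapk3 (0.44) and Braf to Araf (0.42), all farther apart than the genes named here.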
